A study of Homo sapiens with 6 samples.

Results

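The clustered histone genes of NCI-N87 gastric carcinoma cells were followed in wild-type cells and after knockout of KRT17, the gene of the intermediate filament protein keratin 17. Members were the protein-coding genes whose GENCODE release 29 name starts with HIST1H, HIST2H, HIST3H or HIST4H, 71 of the 58735 gene IDs measured (19951 of them protein-coding). On GRCh38, 55 lay on chromosome 6 (25726132 to 27893843), 15 on chromosome 1 and 1, HIST4H4, on chromosome 12. They comprised 6 H1, 17 H2A, 18 H2B, 15 H3 and 15 H4 genes. Another 19 IDs with such names were not protein-coding and were left out. The 6 libraries came from total RNA of 3 groups of 2: wild type (WT), and KRT17 knockout groups KO1 and KO2, all in the same established line. The labels name no treatment or time. They do not say whether KO1 and KO2 differ by guide or by clone, nor whether replicates are separate cultures, so every p-value reflects differences among single libraries that could be technical only.

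Nucleosomes wrap DNA around a core of H2A, H2B, H3 and H4, and H1 binds the linker DNA between cores. Most clustered histone genes are made during DNA replication, lack introns, and end in a conserved stem-loop, bound by the protein SLBP, in place of a poly(A) tail. Some of them also give longer, polyadenylated transcripts that read past the stem-loop, mainly in cells that leave the cycle or differentiate. No source used here states whether poly(A) RNA was selected before library preparation, so a level below may mix both kinds of transcript.

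The stem-loop is shown for 7 members whose levels are described below, because the annotation beyond it decides which transcripts their reads could come from. The sequences were read from the GENCODE 29 transcripts as DNA, 5′ to 3′, with the 16 bases that fit the stem-loop motif in capitals (G, G, any 3 bases, T, T, T, any 2, A, any 3, C, C) and up to 5 flanking bases in lower case.
HIST1H2AC: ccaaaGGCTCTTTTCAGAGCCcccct
HIST1H2BD: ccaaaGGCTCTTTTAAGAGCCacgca
HIST1H2AG: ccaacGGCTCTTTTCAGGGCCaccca
HIST1H4I: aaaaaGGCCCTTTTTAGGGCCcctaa
HIST1H4H: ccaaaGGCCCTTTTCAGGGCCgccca
HIST2H2BE: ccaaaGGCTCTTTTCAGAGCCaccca
HIST3H2A: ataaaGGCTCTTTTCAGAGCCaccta
The motif followed the stop codon in 31 of the 36 members with bases annotated after it, and in 3.41% of 19851 other protein-coding genes with a coding transcript. Only 5 different stem-loops occurred among the 31. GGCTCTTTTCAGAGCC was held by 17 members and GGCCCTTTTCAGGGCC by 5, all H4 genes. For 22 members the annotation ran 100 or more bases past the stem-loop. For the other 35 members no base after the stop codon is annotated. Among them, HIST1H2BK and HIST1H1C have coding bases only, so reads wholly outside these entered no count, while HIST1H3J and HIST1H2BA have other exon bases.

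Upstream sequence is shown for the member with the highest level and the member with the largest change on the log2(FPKM + 1) scale. It is also shown for a gene of each H2A and H2B pair on chromosome 1 that starts head to head. Each sequence is the 250 bases before the RefSeq start (GRCh38.p14), 5′ to 3′ along the gene. Capitals mark the octamer ATTTGCAT, CCAAT and TATAAA on either strand, so ATGCAAAT, ATTGG and TTTATA are capitals too, and TTTATAAA is an overlap of both TATA forms.
HIST1H2BK, chr6:27146859-27147108, minus strand: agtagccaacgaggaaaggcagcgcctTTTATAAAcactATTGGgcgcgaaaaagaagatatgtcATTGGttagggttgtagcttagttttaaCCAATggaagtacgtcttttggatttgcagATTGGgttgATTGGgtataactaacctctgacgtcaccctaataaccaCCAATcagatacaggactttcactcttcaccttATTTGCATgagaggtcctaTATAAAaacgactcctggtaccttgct
HIST1H2BD, chr6:26157871-26158120, plus strand: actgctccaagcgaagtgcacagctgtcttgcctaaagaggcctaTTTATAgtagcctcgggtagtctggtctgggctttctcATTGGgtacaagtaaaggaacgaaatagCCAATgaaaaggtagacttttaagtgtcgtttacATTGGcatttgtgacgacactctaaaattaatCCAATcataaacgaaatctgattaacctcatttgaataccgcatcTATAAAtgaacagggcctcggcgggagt
HIST2H2BE, chr1:149886683-149886932, minus strand: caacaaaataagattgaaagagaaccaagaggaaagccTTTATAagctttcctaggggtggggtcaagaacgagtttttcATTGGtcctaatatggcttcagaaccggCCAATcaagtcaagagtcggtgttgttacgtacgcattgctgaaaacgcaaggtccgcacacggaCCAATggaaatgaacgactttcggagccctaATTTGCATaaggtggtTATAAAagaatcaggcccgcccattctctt
HIST3H2A, chr1:228457874-228458123, minus strand: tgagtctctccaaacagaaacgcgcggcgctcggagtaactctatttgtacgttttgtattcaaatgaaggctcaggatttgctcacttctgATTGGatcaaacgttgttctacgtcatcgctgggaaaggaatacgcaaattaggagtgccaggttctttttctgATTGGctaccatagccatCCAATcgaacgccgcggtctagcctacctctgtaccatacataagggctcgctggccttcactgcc
RefSeq promoters of 300 bases were matched for 61 of 71 members. The octamer, a motif known from H2B promoters, was found in 25 of them, 14 of 18 H2B and 11 of 14 H2A members, in none of the 29 promoters of other classes, and in 1.77% of all 35116 promoters. The 25 matches were 17 different places, of which 8 lay in the promoters of 2 members each. CCAAT was found in 51 (34.6% of all promoters) and TATAAA in 41 (11.5%). HIST1H2BD had no octamer in this window, and neither had HIST3H2A.

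Depth was 17599759 to 22852340 recovered reads per library, so 1 read in a 400-base gene equals 0.107 to 0.136 FPKM (fragments scaled by exon length and by a depth that the authors set). That depth was 0.945 and 0.936 of the recovered reads in WT, 1.03 and 1.04 in KO1 and 1.05 in both KO2 libraries. KRT17 was at 739 and 753 FPKM in WT, 2.29 and 2.40 in KO1 and 11.3 and 10.4 in KO2. Knockout libraries also differed from WT in identity markers. The summed level of 6 markers of gastric carcinoma epithelium was 4988 to 5154 FPKM (WT), 379.7 to 390.6 (KO1) and 321.0 to 322.7 (KO2), with all 6 lower, KRT19 at 0 in KO2 and CDH1 between 0.153 and 0.567 FPKM in the knockout libraries. The summed level of 6 fibroblast markers was 0.760 to 0.891 in WT, 44.2 to 44.7 in KO1 and 54.9 to 57.5 in KO2, with 4 of 4 tested higher while COL1A2 and THY1 stayed at or below 0.0368 in every library. Summed leukocyte and endothelial markers stayed at or below 2.19 FPKM. The part of these differences in the histone results was not tested.

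The summed level of the clustered histone genes was higher in both knockout groups, mostly through chromosome 6. Over all 71 members it was 138.4 and 136.3 FPKM in WT, 279.7 and 289.9 in KO1 and 448.8 and 447.7 in KO2. That is 2.07-fold (KO1) and 3.26-fold (KO2) the WT mean. The chromosome 6 members summed to 90.8 ± 3.76 FPKM (WT), 251.8 ± 7.01 (KO1) and 400.003 ± 4.30 (KO2), given as mean ± SD with n = 2 per group. The chromosome 1 members summed to 45.3 ± 2.52, 31.8 ± 0.266 and 47.2 ± 3.51 FPKM, lower in KO1 than in WT and within the spread of WT in KO2. As a share of recovered reads, which gives long genes more weight, all members took 0.0109 to 0.0110% in WT, 0.0265 to 0.0272% in KO1 and 0.0436 to 0.0445% in KO2. On this measure the chromosome 1 members were higher in both knockout groups, with 0.00415 and 0.00433% in WT, 0.00549 and 0.00575% in KO1 and 0.00820 and 0.00910% in KO2, so their direction in KO1 depends on the measure. In bulk libraries, more cells that carry a transcript and more of it per cell cannot be told apart.

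**Figure D1:**
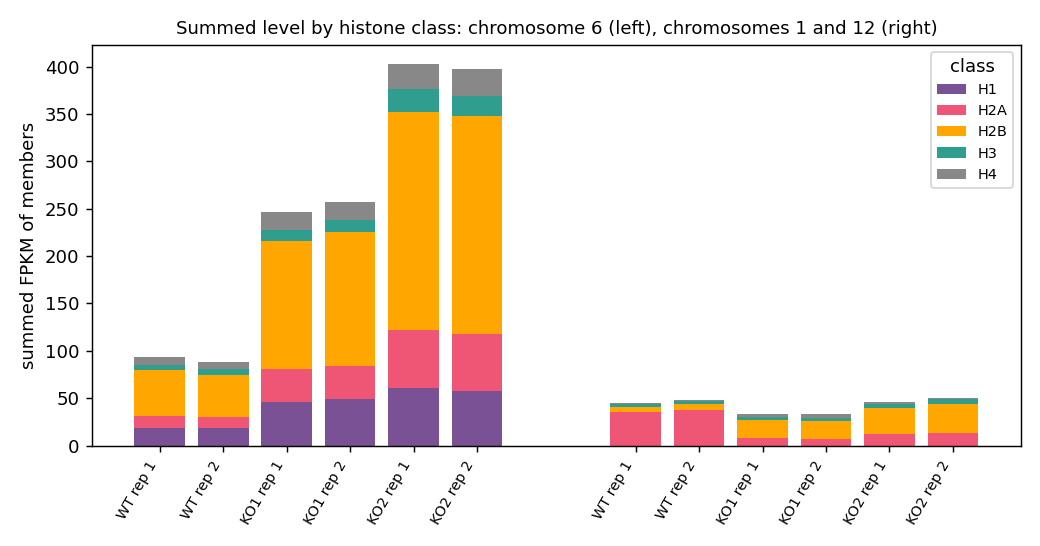
Summed FPKM of the members in each library (y axis, linear), stacked by histone class, with chromosome 6 members on the left and those of chromosomes 1 and 12 on the right. On chromosome 6 the bars rise from WT through KO1 to KO2 and H2B takes the largest part; on the right H2A falls and H2B grows.

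H2B made most of the rise. The 18 H2B members summed to 52.5 ± 2.78 FPKM (WT), 156.7 ± 4.49 (KO1) and 259.3 ± 2.43 (KO2). H1 members summed to 18.3 ± 0.241, 47.5 ± 1.63 and 58.9 ± 2.49, H3 members to 8.43 ± 0.603, 15.7 ± 1.06 and 27.1 ± 0.731, and H4 members to 9.11, 22.3 and 29.1. H2A members summed to 49.0 ± 1.62 in WT, 42.4 ± 0.813 in KO1 and 73.9 ± 0.483 in KO2, with HIST3H2A of chromosome 1 the largest contributor in WT. Their share of recovered reads did not dip in KO1: it was 0.00416 and 0.00431% in WT, 0.00612 and 0.00584% in KO1 and 0.0105 and 0.0103% in KO2. On chromosome 6 alone, H2A members went from 12.6 to 34.6 and 61.2 FPKM. A few members carried the sums: HIST1H2BK gave 22.4 to 33.1% of the total in a library, and the 5 highest members 63.6 to 66.6%. Without HIST1H2BK the sums were 104.5, 192.3 and 302.4 FPKM. These shares were smaller in recovered reads, which give long genes more weight. The 5 highest members held 1422 of 2515 member reads in WT replicate 1 and 3788 of 8120 in KO2 replicate 1. Without HIST1H2BK, 2227 and 7030 of these reads remained.

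Levels were unequal among copies: over the 6 libraries, 6 members averaged above 10 FPKM, 24 between 1 and 10, and 41 at or below 1. Tests used limma on log2(FPKM + 1), with genes of at least 1 FPKM in 2 or more libraries, a Benjamini-Hochberg adjusted p over 16046 genes and a threshold of 0.05. Changes are given on that log2 scale ± SE, which understates the change of low genes. Of the 71 members, 36 passed the filter, 29 on chromosome 6. Since 14 of the 36 passed only through knockout libraries, and none only through WT, counts over the 36 lean towards higher calls and describe the tested members only. For the knockout average (the mean of KO1 and KO2 against WT), 29 of 36 were higher (80.6%) and 2 lower (5.56%), against 40.5% and 40.1% of all genes tested. Their median change was 1.08, and that of all tested genes 0.02. Without the filter, 63 members had reads in some library, and 30 were higher and 4 lower (21.5% and 24.3% of 36164 genes).

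**Figure D2:**
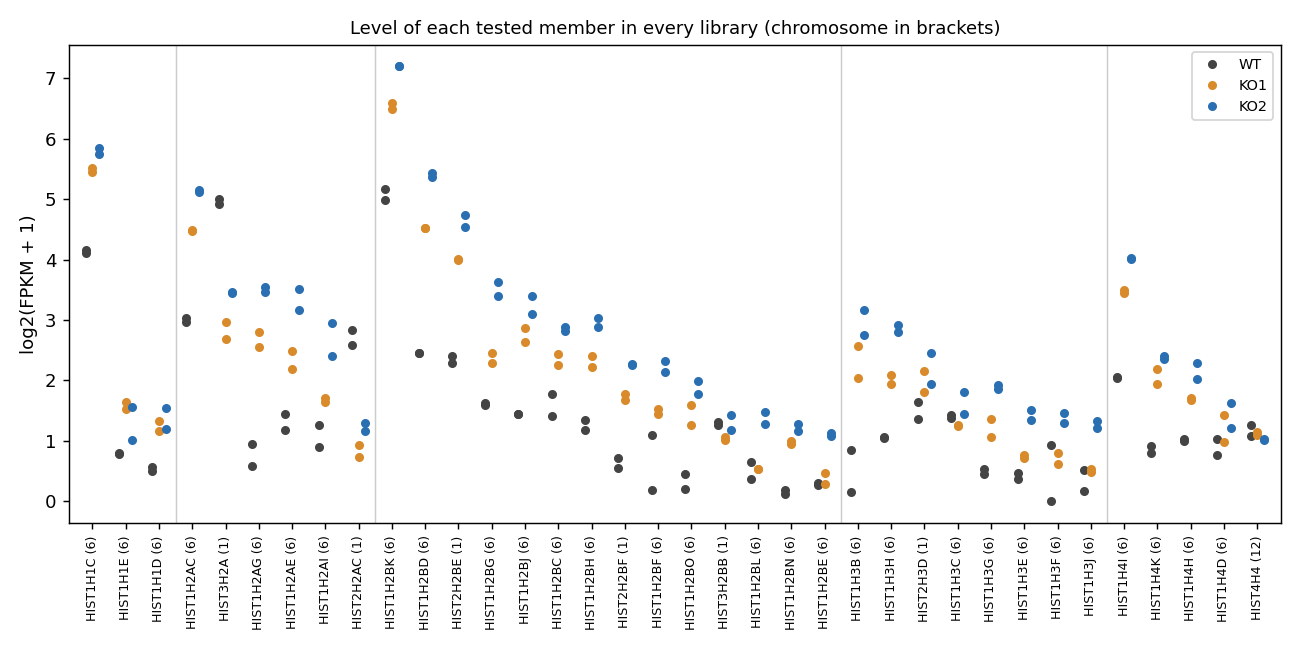
Level of the 36 tested members in each library, as log2(FPKM + 1), ordered by class and mean level, with the chromosome in brackets; each point is 1 library. Most chromosome 6 members step upward from WT to KO1 to KO2, while HIST3H2A and HIST2H2AC start highest in WT.

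Against WT, KO1 alone had 25 members higher and 2 lower (39.3% and 38.6% of all genes tested). KO2 alone had 29 higher and 2 lower (39.1% and 39.8%), and both comparisons share the WT libraries. Without the filter, KO1 had 23 of 63 higher and 3 lower (19.9% and 22.6% of all genes) and KO2 had 30 higher and 5 lower (20.3% and 23.1%). The 4 knockout libraries lay above both WT libraries in 26 tested members (39.9% of all tested genes) and below them in 2 (40.0%). The order WT below KO1 below KO2 in every library held for 23 members, against 13.2% of all tested genes. On chromosome 6, 26 of 29 tested members were higher in the knockout average and none was lower (40.5% and 40.1% of all tested genes). Of these 29, 13 passed the filter only through knockout libraries. HIST1H3C, HIST1H4D and HIST1H3F were not called. On chromosome 1, 3 of 6 were higher, 2 lower and 1 not called. HIST4H4 was not called.

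Linker histone genes were led by HIST1H1C on chromosome 6 (26055787 to 26056428), which gave most H1 reads. It stood at 16.3 and 16.8 FPKM in WT, 42.5 and 45.0 in KO1 and 56.6 and 53.0 in KO2. Groups did not overlap, and the knockout average was 1.51 ± 0.04 higher (limma, adjusted p = 2.44e-06). HIST1H1E was far lower, with 0.737 and 0.722 FPKM in WT, 1.88 and 2.10 in KO1 and 1.01 and 1.93 in KO2. Its rise of 0.64 ± 0.16 (adjusted p = 0.0137, limma) was called in KO1 and not in KO2 (adjusted p = 0.0561), and leaving out WT replicate 1 or 2 ended the call (adjusted p = 0.0948 and 0.0990). HIST1H1D went from 0.487 and 0.409 FPKM to between 1.22 and 1.91 in the 4 knockout libraries. The other H1 members (HIST1H1A, HIST1H1B and HIST1H1T) stayed below 1 FPKM in every library.

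Of the 12 H2A genes of chromosome 6, 4 were tested, HIST1H2AG through knockout libraries only. All 4 were higher in the knockout average (40.5% of all tested genes). HIST1H2AC, the most abundant of them (26124145 to 26139116), was at 7.22 and 6.79 FPKM in WT, 21.4 and 21.3 in KO1 and 34.3 and 33.9 in KO2. Its change was 1.81 ± 0.03 (limma, adjusted p = 6.90e-07), with replicates closer to each other than to any other group. HIST1H2AG (27133042 to 27135291) had the second largest change of all tested members on this scale, 2.33 ± 0.13, from 0.494 and 0.919 FPKM in WT to 5.98 and 4.89 in KO1 and 10.7 and 10.03 in KO2 (adjusted p = 3.06e-05, limma). It rested on 62 reads in WT of 1518 in all. HIST1H2AE rose from 1.27 and 1.71 FPKM to 3.54 and 4.58 in KO1 and 7.92 and 10.4 in KO2. HIST1H2AI rose from 1.38 and 0.866 to 2.13 and 2.27 in KO1 and 6.69 and 4.28 in KO2, but 57.7% of its 100-base windows also occur in HIST1H2AJ, so its level is uncertain. HIST1H2AJ itself, not tested, was at 1.20 and 0.563 FPKM in WT and between 0.278 and 0.527 in the knockout libraries.

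H2B genes held the highest level and the largest change on the log2(FPKM + 1) scale. HIST1H2BK (27146418 to 27146798) was at 35.0 and 30.6 FPKM in WT, 89.0 and 95.8 in KO1 and 146 in both KO2 libraries. All groups were apart, with a knockout average 1.80 ± 0.06 higher (limma, adjusted p = 5.79e-06). Its level is uncertain: 28.4% of its 100-base windows and 74.1% of its 50-base windows recur in other genes (AC092896.1, H2BFS and HIST1H2BPS1), and no source used here states how reads with several places were handled. HIST1H2BD (26158146 to 26171349) shared no 100-base window and had the largest change, 2.51 ± 0.03 (limma, adjusted p = 2.15e-07). It stood at 4.47 and 4.50 FPKM in WT, 22.1 and 21.97 in KO1 and 40.4 and 42.0 in KO2, 4.91-fold and 9.19-fold the WT mean. Some members with lower WT levels had larger FPKM ratios: 7.69-fold and 14.7-fold in KO1 and KO2 at HIST1H2AG, 8.87-fold and 15.1-fold at HIST1H3B and 8.58-fold and 11.9-fold at HIST1H2BN. These members passed the filter only through knockout libraries, which favours large ratios. Other members low in WT had smaller ratios than HIST1H2BD: 1.38-fold and 5.35-fold in KO1 and KO2 at HIST1H2BE and 1.98-fold and 4.93-fold at HIST1H3E.

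Of the 14 tested H2B members 13 were higher and none lower in the knockout average (40.5% and 40.1% of all tested genes). Of these 14, 5 passed the filter only through knockout libraries. HIST1H2BG went from 2.08 and 2.02 FPKM in WT to 4.47 and 3.90 in KO1 and 9.48 and 11.4 in KO2 (1.33 ± 0.09, limma adjusted p = 6.20e-05). HIST1H2BJ went from 1.71 and 1.72 to 6.27 and 5.23 in KO1 and 9.50 and 7.60 in KO2 (1.56 ± 0.11, adjusted p = 7.02e-05, limma). Neither gene's libraries overlapped between WT and the knockouts. HIST1H2BC, HIST1H2BE, HIST1H2BF and HIST1H2BG encode the same protein as HIST1H2BI, and these 5 summed to 4.94 ± 0.186 FPKM (WT), 10.7 ± 0.305 (KO1) and 21.8 ± 1.11 (KO2). HIST1H2BL and HIST1H2BE were called in KO2 (0.88 ± 0.13 and 0.82 ± 0.10) and not in KO1 (0.03 ± 0.13 and 0.09 ± 0.10). Both were also higher in KO2 than in KO1 (0.85 and 0.73, limma adjusted p = 0.00983 and 0.00701). They passed the filter through KO2 libraries only, which favours this pattern. The call of HIST1H2BL in the knockout average was lost under quantile normalization, voom and without WT replicate 1 (adjusted p = 0.0994, 0.0918 and 0.0504).

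H3 genes of chromosome 6 were low in WT. Of 8 tested H3 members, HIST2H3D of chromosome 1 included, 6 were higher in the knockout average and none lower (40.5% and 40.1% of all tested genes). Of these 8, 5 passed the filter only through knockout libraries. HIST1H3B (26031650 to 26032060) changed most among the tested H3 members, 2.13 ± 0.26 (limma, adjusted p = 8.11e-04). It had 0.113 and 0.795 FPKM in WT, only 7 reads, against 3.13 and 4.92 in KO1 and 7.94 and 5.77 in KO2. HIST1H3H rose from 1.09 and 1.06 FPKM to 2.84 and 3.24 in KO1 and 5.98 and 6.53 in KO2 (1.38 ± 0.06, adjusted p = 1.72e-05, limma). HIST1H3G rose from 0.442 and 0.361 to 1.56 and 1.09 in KO1 and 2.60 and 2.79 in KO2. HIST1H3C did not follow: it was at 1.69 and 1.59 FPKM in WT, 1.36 and 1.39 in KO1 and 2.48 and 1.70 in KO2, with overlapping groups (0.03 ± 0.11, limma adjusted p = 0.807). HIST1H3F, on 45 reads in all, was not called either (0.57 ± 0.27, adjusted p = 0.1, limma). The 10 HIST1H3 members encode the same protein and summed to 5.73 ± 0.101 FPKM (WT), 11.97 ± 0.903 (KO1) and 22.7 ± 1.69 (KO2).

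Of the 15 H4 genes 14, HIST4H4 included, encode the same protein, and their sum was 9.11 ± 0.627 FPKM (WT), 22.3 ± 0.843 (KO1) and 28.99 ± 0.362 (KO2). HIST1H4I (27138588 to 27139881) gave the largest part, with 3.15 and 3.11 FPKM in WT, 10.3 and 9.93 in KO1 and 15.1 and 15.3 in KO2 (1.70 ± 0.03, limma adjusted p = 8.59e-07). HIST1H4H rose from 0.985 and 1.03 FPKM to 2.26 and 2.20 in KO1 and 3.04 and 3.86 in KO2 (0.91 ± 0.09, adjusted p = 2.85e-04, limma). HIST1H4K rose from 0.742 and 0.872 to between 2.82 and 4.32 in the knockout libraries, but every 100-base window of it also occurs in another gene, HIST1H4J among them, so its level is uncertain. HIST1H4J, not tested, was at 1.24 and 0.730 FPKM in WT, 0.804 and 0.472 in KO1 and 0.274 and 0.144 in KO2. HIST1H4D was at 1.04 and 0.698 in WT and between 0.962 and 2.07 in the knockout libraries, overlapping and not called (0.41 ± 0.19, limma adjusted p = 0.0987). HIST4H4, alone on chromosome 12 (14767999 to 14771131), lay between 1.02 and 1.40 FPKM in all 6 libraries (-0.11 ± 0.08, adjusted p = 0.254, limma).

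Chromosome 1 members went both ways. HIST2H2BE (149884459 to 149886652) rose from 3.86 and 4.29 FPKM in WT to 15.1 and 14.9 in KO1 and 22.3 and 25.6 in KO2 (1.98 ± 0.07, limma adjusted p = 5.36e-06). HIST2H2BF rose from 0.638 and 0.460 FPKM to 2.20 and 2.41 in KO1 and 3.75 and 3.83 in KO2 (1.36 ± 0.07, adjusted p = 2.63e-05, limma), with 17.6% of its 100-base windows shared. Both H2B genes kept all libraries of the 3 groups apart and in the order of the chromosome 6 members. HIST2H3D, with 51.3% of windows shared, had 1.58 and 2.12 FPKM in WT, 2.50 and 3.43 in KO1 and 2.85 and 4.46 in KO2. Its call (0.58 ± 0.19, limma adjusted p = 0.0323) was lost without a filter on low values (0.0704), under quantile normalization (0.0533) and without WT replicate 1 (0.225), WT replicate 2 (0.0914) or KO1 replicate 2 (0.0775).

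Both members that fell were H2A genes of chromosome 1. HIST3H2A (228456979 to 228457873) was at 29.2 and 31.1 FPKM in WT and at 6.80 and 5.41 in KO1 and 9.92 and 9.99 in KO2. It fell by 1.82 ± 0.08 in the knockout average (limma, adjusted p = 1.71e-05) and shared no 100-base window with another gene. HIST2H2AC (149886975 to 149887364) was at 4.99 and 6.14 FPKM in WT, 0.659 and 0.902 in KO1 and 1.44 and 1.24 in KO2, a fall of 1.68 ± 0.11 (adjusted p = 5.25e-05, limma) with 17.2% of its windows shared. In both genes every knockout library lay below both WT libraries, and the KO2 libraries lay above the KO1 libraries. HIST3H2BB was at 1.49 and 1.38 FPKM in WT, 1.09 and 1.02 in KO1 and 1.25 and 1.69 in KO2, and was not called (-0.11 ± 0.09, limma adjusted p = 0.289).

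Many H2A and H2B genes start head to head. Within 1 kb, 12 head-to-head pairs of members of any class were found, a feature chosen after values were seen. In 10 of them RefSeq promoters of 300 bases overlap by 253 to 286 bases. Both genes were tested in 7 pairs, and in 5 both were higher: HIST1H2BC with HIST1H2AC, HIST1H2BG with HIST1H2AE, HIST1H2BJ with HIST1H2AG, HIST1H2BL with HIST1H2AI and HIST1H3J with HIST1H2BO. Of all tested genes 40.5% were higher. HIST1H2AG, HIST1H2BL, HIST1H3J and HIST1H2BO passed the filter only through knockout libraries, so the count of pairs leans towards higher calls. HIST1H2BO is also paired with HIST1H2AM, and 44.6% of the exon bases of HIST1H3J, an H3 gene, overlap HIST1H2AM. With 36.5% of its 100-base windows shared too, the level of HIST1H3J is uncertain. HIST2H2BE and HIST2H2AC, 323 bases apart and with 265 promoter bases in common, moved in opposite directions in both knockout groups. The octamer printed above for HIST2H2BE starts at position -46 from its RefSeq start, and the same bases (chr1:149886721-149886728) lie in the window of HIST2H2AC at -197, so both genes share 1 octamer. HIST3H2A and HIST3H2BB, 234 bases apart with 271 promoter bases in common, were 30.2 and 1.44 FPKM in WT, 6.10 and 1.06 in KO1 and 9.95 and 1.47 in KO2. HIST1H2BK was paired with HIST1H2AH, 331 bases away, which stayed at 0.401, 0.338 and 0.341 FPKM in WT, KO1 and KO2. Of 14 tested H2A and H2B members with an octamer 13 were higher and 1 lower, and of 6 without it 4 were higher and 1 lower, against 40.5% and 40.1% of all tested genes. Of these members 4 of the 14 and 2 of the 6 passed the filter only through knockout libraries.

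**Figure D3:**
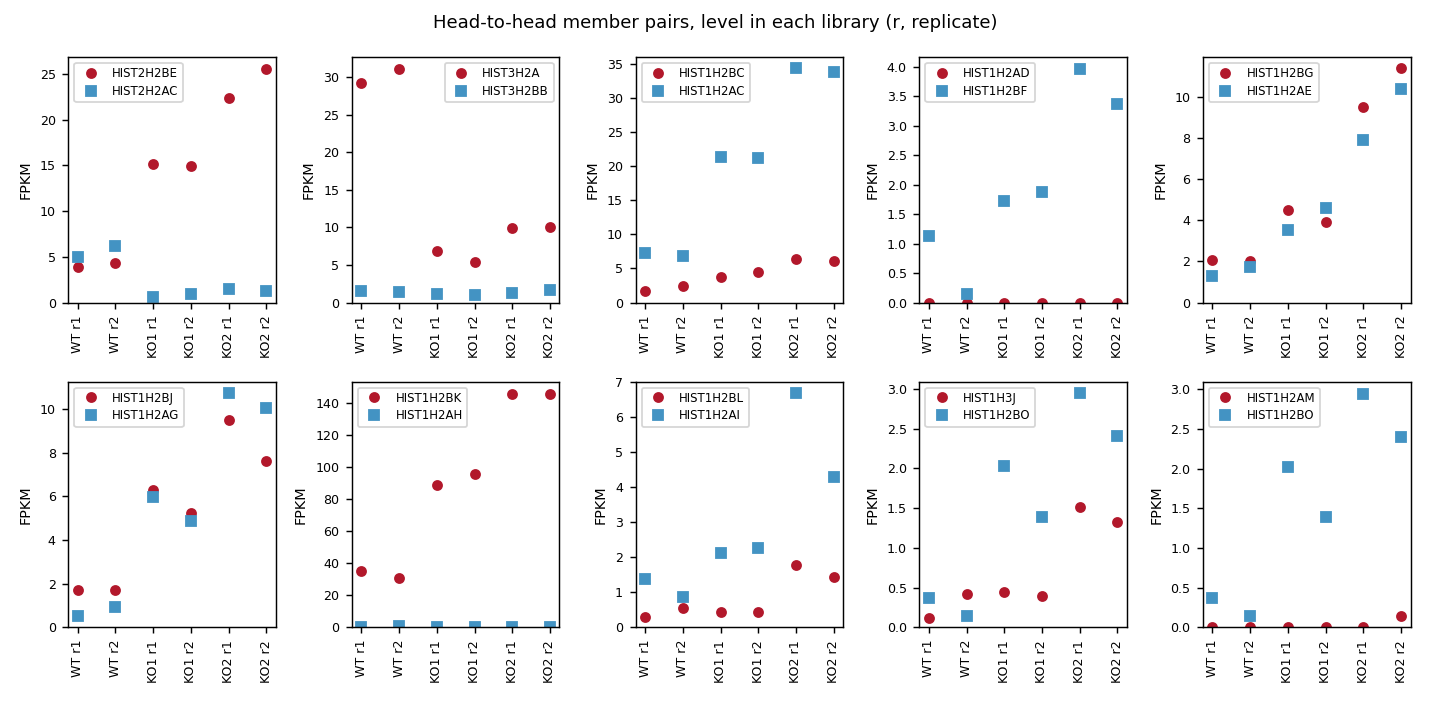
FPKM of the members of 10 head-to-head pairs in each library (linear axes, each panel with its own range); r is the replicate and each point is 1 library. HIST2H2BE and HIST2H2AC move apart, HIST3H2A falls beside a nearly level HIST3H2BB, and the pairs HIST1H2BG with HIST1H2AE and HIST1H2BJ with HIST1H2AG climb together.

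KO2 and KO1 differed in the same direction at most tested members. Of 36, 21 were higher in KO2 (58.3%) and none lower, against 11.2% and 15.0% of all tested genes. Some of the 36 reached 1 FPKM in KO2 libraries only, HIST1H2BE, HIST1H2BL, HIST1H3E and HIST1H3J among them. HIST1H2BE was at 0.216 and 0.374 FPKM in KO1 and 1.11 and 1.19 in KO2. These counts therefore lean towards KO2 and describe the tested members only. At an unadjusted p under 0.05 no member was lower either, by limma or by voom on recovered reads. Without KO2 replicate 2, HIST1H1E was called lower (adjusted p = 0.0352). Without the filter 17 of 63 were higher and none lower (3.84% and 4.96% of all genes). The largest differences were HIST1H2BG (1.14 ± 0.10, limma adjusted p = 0.00226), HIST1H2AE (1.0 ± 0.17, adjusted p = 0.0139) and HIST1H2AI (0.99 ± 0.21, adjusted p = 0.0262). HIST1H2BK was 0.65 ± 0.07 higher in KO2 (adjusted p = 0.00379, limma) and HIST1H2BD 0.87 ± 0.03 (adjusted p = 3.68e-04). HIST3H2A, which fell against WT, was 0.63 ± 0.10 higher in KO2 than in KO1 (limma, adjusted p = 0.0105). HIST1H1C differed least among the 21, by 0.32 ± 0.05 (limma, adjusted p = 0.00834). The number depended on single libraries: it was 11 without KO1 replicate 1 and 13 without KO2 replicate 1. Against a fold of 1.5 only HIST1H2BD remained of the 21. Marker lists also differed between KO2 and KO1: the 4 tested fibroblast markers had a median of 0.51, with 3 higher, the 1 tested leukocyte marker 0.43, and the 6 epithelial markers -0.12.

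**Figure D4:**
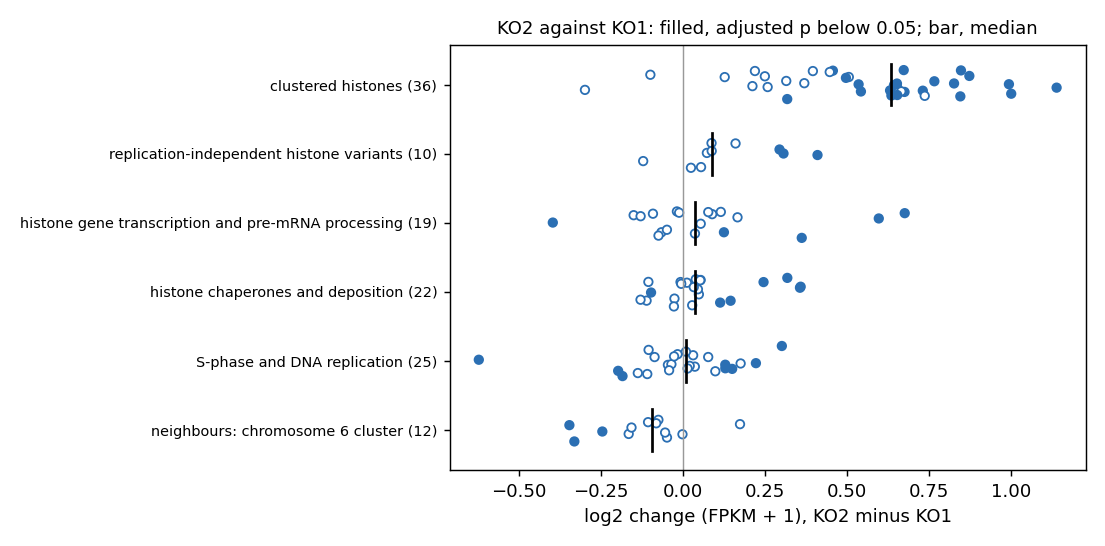
Change of KO2 minus KO1 (x axis, log2 of FPKM + 1) for tested genes of each list, with the number in brackets; each point is 1 gene, filled where the adjusted p was below 0.05, black bars are medians and vertical scatter has no meaning. The median of the clustered histones is 0.63, and those of the other lists plotted lie between -0.09 and 0.09.

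Along chromosome 6 the members lie in 3 blocks more than 0.5 Mb apart. In the first (25726132 to 26285638, 34 members) 15 of 18 tested were higher, in the second (27125897 to 27147515, 5 members) 4 of 4 and in the third (27807444 to 27893843, 16 members) 7 of 7. Of these tested members 7, 1 and 5 passed the filter only through knockout libraries, so the counts lean towards higher calls, most in the third block. The second block, with HIST1H2BJ, HIST1H2AG, HIST1H4I and HIST1H2BK, had changes between 1.56 and 2.33. Other genes of the stretch were higher too. Of 20 other protein-coding genes inside the cluster 12 were tested, 11 were higher and 1 was not called in the knockout average, with a median of 0.48 (40.5% of all tested genes were higher). HFE, a regulator of iron uptake, rose by 1.27 ± 0.04 (limma, adjusted p = 3.67e-06), ZNF322 by 1.19 ± 0.06 and ZNF184 by 1.18 ± 0.10, both zinc finger genes. The smallest values were BTN3A3, a butyrophilin gene (-0.15 ± 0.08, not called), ABT1 (0.19 ± 0.06) and BTN2A2 (0.20 ± 0.06). In KO2 against KO1 none of the 12 was higher and 3 were lower, against 18 of 29 members higher and none lower, and 11.2% and 15.0% of all tested genes. Some of these 29 members passed the filter through KO2 libraries only. In KO2 against WT, 6 of the 12 other genes were higher, 1 lower and 5 not called. The blocks of chromosome 1 (149782689 to 149887916 and 228424845 to 228460470) hold no other protein-coding gene whole, though exons of BOLA1 and FCGR1A overlap HIST2H2AB and HIST2H2BF.

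**Figure D5:**
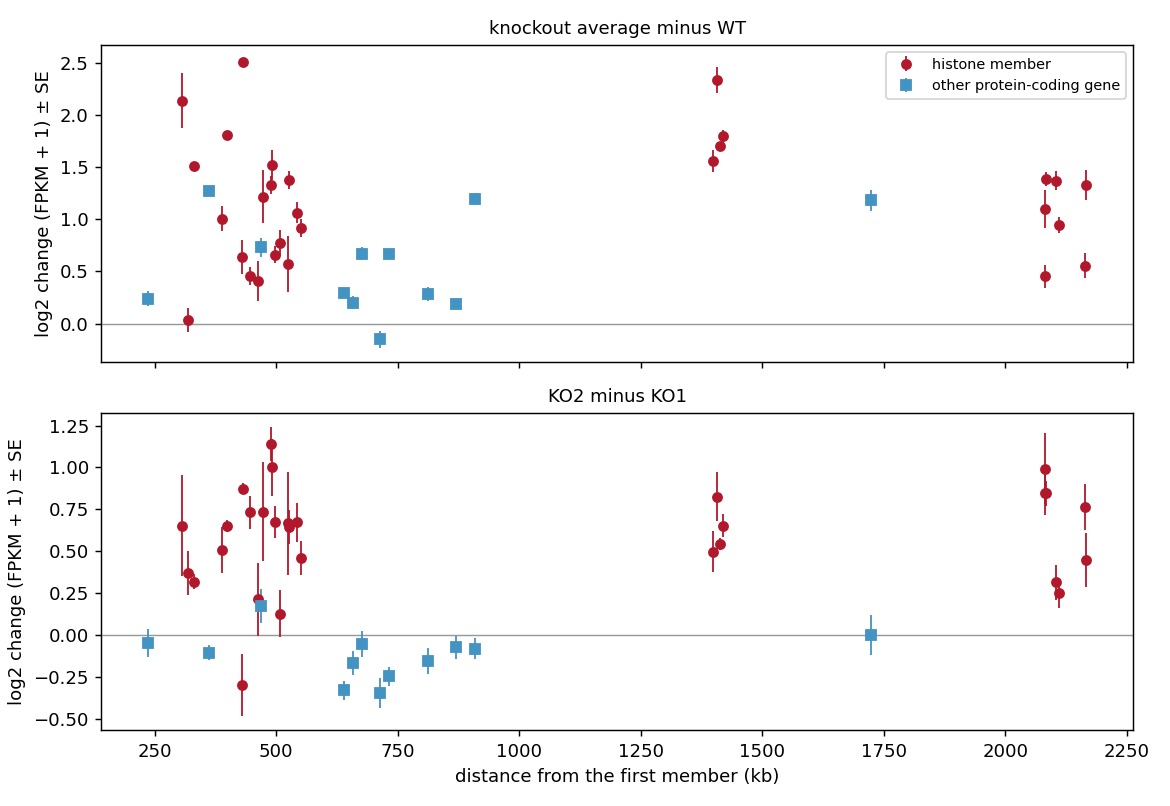
Change ± SE of tested histone members and of other tested protein-coding genes by distance from the first member on chromosome 6 (x axis, kb); the upper panel is the knockout average minus WT, the lower KO2 minus KO1, on the log2(FPKM + 1) scale. Both kinds of gene lie mostly above 0 in the upper panel; in the lower panel most members lie above 0 and most other genes below it.

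Copies and annotation limit what single levels show. Of 71 members, 24 shared at least 1 of their 100-base windows with another gene, 19 more than 10% and 15 more than 50% of them. Of the 52 members at or under 10%, 29 were tested, 23 were higher and 1, HIST3H2A, was lower (40.5% and 40.1% of all tested genes). Of these 29, 11 passed the filter only through knockout libraries. The duplicated genes HIST2H2AA3, HIST2H2AA4, HIST2H3A, HIST2H3C, HIST2H4A and HIST2H4B summed to 0.577 FPKM (WT), 2.67 (KO1) and 2.26 (KO2), none of them tested. Of the 35 members not tested, 8 had 0 reads in all libraries, 5 had every knockout library above WT, 3 had every one below, and 19 overlapped. Those below were HIST1H2AJ, HIST1H3A and HIST1H3I. Of the 8, HIST1H3D, HIST1H2AD, HIST1H2AK and HIST2H3PS2 have 98% or more of their exon bases inside other genes, which can leave a gene without counted reads.

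By annotation, the 22 members that run 100 or more bases past the stem-loop had median levels of 0.858 FPKM (WT), 2.01 (KO1) and 3.56 (KO2). Of these 22, 17 were tested, with 14 higher and 1 lower in the knockout average (40.5% and 40.1% of all tested genes). The 35 with no base annotated after the stop codon had medians of 0.270, 0.343 and 0.341 FPKM, and 12 were tested, with 8 higher and 1 lower. Another 9 have a stem-loop and fewer than 100 bases past it, with medians of 0.838, 0.638 and 0.707 FPKM. For 5 with bases after the stop codon and no stem-loop match, medians were 0.357, 0.673 and 1.47 FPKM. Of all 49 members outside the group of 22, 19 were tested, with 15 higher, HIST1H2BD among them, and 1 lower. Of the tested members, 5 of the 17, 6 of the 12 and 9 of the 19 passed the filter only through knockout libraries. The counts of higher calls therefore lean upward, and unequally between these groups. Of 13 RNAs that carry no poly(A) tail, 9 were listed at 0 in every library, among them RN7SK and RMRP. RN7SL2, the RNA of the signal recognition particle, was at 2893 and 2654 FPKM in WT, 1399 and 1283 in KO1 and 935 and 596 in KO2, so it moved against most histone members. The part of library preparation in the histone levels was not tested.

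Most tested genes of a list of histone variants outside the members fell. Of 12 listed, 10 were tested, 8 were lower and 2 higher (40.1% and 40.5% of all tested genes), with a median of -0.70. H2AFZ, which replaces H2A at promoters, went from 230 and 229.7 FPKM in WT to 90.1 and 91.3 in KO1 and 95.6 and 89.2 in KO2 (-1.32 ± 0.03, limma adjusted p = 1.98e-06). H2AFJ fell by 2.0 ± 0.06, H2AFX, the variant phosphorylated at DNA breaks, by 1.49 ± 0.05, and H3F3B, a gene of the replacement H3, by 0.69 ± 0.02. In WT, the FPKM of H2AFZ, H2AFX, H3F3A, H3F3B, H1F0 and H1FX each lay above that of every clustered member. Those higher were H2AFV and H1FX (0.28 ± 0.03 and 0.43 ± 0.04).

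Among genes that make and process histone mRNA, 19 were tested and 10 were higher, 7 lower and 2 not called, shares near those of all tested genes (40.5% and 40.1%). NPAT, the coactivator of histone gene transcription, rose by 1.26 ± 0.03 (limma, adjusted p = 2.39e-06), and its kinase CDK2 by 0.85 ± 0.03 and the partner CCNE1 (cyclin E1) by 1.13 ± 0.04. SYMPK, a scaffold of 3′ end cleavage, fell by 0.93 ± 0.03. SLBP, named for its role after its value was seen, fell from 38.5 and 36.5 FPKM to 26.7 and 28.5 in KO1 and 25.1 and 27.6 in KO2 (-0.46 ± 0.05, limma adjusted p = 5.44e-04). NPAT was lower in KO2 than in KO1 (-0.40), unlike the members.

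Replication genes and histone chaperones were called about as often in each direction as all tested genes (40.5% higher and 40.1% lower). Of 25 S-phase genes 10 were higher, 11 lower and 4 not called in the knockout average, and 5 higher and 3 lower in KO2 against KO1. CDC6, which loads the replicative helicase, fell by 1.69 ± 0.03 (limma, adjusted p = 7.12e-07), while POLA1, the catalytic subunit of DNA polymerase alpha, rose by 1.09 ± 0.03, the helicase subunit MCM3 by 1.06 ± 0.03 and the ribonucleotide reductase subunit RRM1 by 1.13 ± 0.03. Of 22 tested chaperone and deposition genes 8 were higher, 10 lower and 4 not called. ASF1B, a chaperone of new H3 and H4, rose by 0.92 ± 0.03 (limma, adjusted p = 3.89e-06), RBBP7 by 0.74 ± 0.02 and NAP1L4, an H2A and H2B chaperone, by 0.79 ± 0.03. HJURP, the chaperone of CENPA, fell by 1.10 ± 0.04.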

How the data were processed

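RNA of 6 NCI-N87 libraries (2 WT, 2 KO1, 2 KO2) was sequenced. Each deposited file holds FPKM values per Ensembl ID, computed by the authors before deposit. The submitters' processing notes name HISAT2 2.0.5, featureCounts 1.5.0-p3 and hg38. No source used here states the strand setting, the handling of multi-mapping reads or the annotation used.

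GENCODE 29 held each of the 58735 IDs and gave names, exon lengths and GRCh38 coordinates. FPKM times exon length came out, in 100% of values and within 0.1 of a step, as a whole multiple of 1 step in each library, so reads were recovered. The files hold no raw counts, so limma 3.58.1 (R 4.3.3) was fitted on log2(FPKM + 1) with all 6 libraries, group means and a variance trend, on 16046 genes, and tested on simulated data. Alternatives were pseudocounts of 0.1 and 0.01, other filters, library size as the only scaling, quantile normalization, voom on recovered reads, a replicate block, limma's treat against a fold of 1.5 and leaving out each library. Members with over 10% of 100-base windows shared were left out as an alternative chosen after seeing the data. Sequences came from GENCODE transcripts and RefSeq promoters, handled with Python 3.11.15 and Biopython 1.88.

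Members, lists and tests were chosen with earlier results of these data known. Library values are given for up to 4 tested chromosome 6 members per class by mean level, all tested members elsewhere, the 3 highest and 3 lowest changes and the 3 largest KO2 against KO1. Lists give up to 4 genes with the smallest adjusted p, and chromosome 6 neighbours the 3 highest and 3 lowest. Other genes named were chosen after their values were seen. No source used here names molecular identifiers, so read numbers show counting depth only.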

Additional observations from a re-analysis of the deposited data

Results flagged for a closer look

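Levels differed between KO1 and KO2 at 21 members, by limma's test of KO2 minus KO1 (adjusted p below 0.05 over all 16046 genes), and every difference was positive. Some of them, HIST1H2BE, HIST1H2BL, HIST1H3E and HIST1H3J among them, passed the filter through KO2 libraries only, which favours a positive difference. On chromosome 6 the H2B genes gave 0.87 at HIST1H2BD, 0.73 at HIST1H2BE, 1.14 at HIST1H2BG, 0.64 at HIST1H2BH, 0.50 at HIST1H2BJ, 0.65 at HIST1H2BK and 0.85 at HIST1H2BL. The H2A genes gave 0.65 at HIST1H2AC, 1.0 at HIST1H2AE, 0.83 at HIST1H2AG and 0.99 at HIST1H2AI. The H3 genes gave 0.68 at HIST1H3E, 0.67 at HIST1H3G, 0.85 at HIST1H3H and 0.77 at HIST1H3J. HIST1H1C gave 0.32, HIST1H4H 0.46 and HIST1H4I 0.54. On chromosome 1 the differences were 0.54 at HIST2H2BF, 0.64 at HIST2H2BE and 0.63 at HIST3H2A. HIST3H2A is the member where KO2 lay closer to WT than KO1 did; at the other 20 KO2 lay farther from WT. For 8 of the 21 (HIST1H2AC, HIST1H2BD, HIST1H2BE, HIST1H2BG, HIST1H2BK, HIST1H3H, HIST1H4I and HIST2H2BE) the call held in every alternative run that tested them, except the test against a fold of 1.5. HIST1H2BE was not tested where at least 1 FPKM was asked in all 6 libraries.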

How the results depend on the processing

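Of 31 members called in the knockout average, 27 were called in the same direction in every alternative that tested them, apart from the test against a fold of 1.5; the exceptions (HIST2H3D, HIST1H1E, HIST1H2BL and HIST1H3J) have low levels, and HIST1H3J was lost under quantile normalization only (adjusted p = 0.0534). With at least 1 FPKM asked in all 6 libraries, 17 members were tested, and 13 were called higher and 1 lower in the knockout average, 12 and 1 in KO1, 13 and 1 in KO2, and 13 higher in KO2 against KO1. With no filter, 4 were lower in the knockout average and 5 in KO2. Without members that share windows, 1 was lower in the average, in KO1 and in KO2. Against a fold of 1.5, 14 were higher in KO1 and 1 in KO2 against KO1. Leaving out 1 library gave 27 to 29 higher and 2 to 3 lower in the average, 21 to 24 and 2 to 3 in KO1, 28 to 29 and 2 to 3 in KO2, and 11 to 19 and 0 to 1 in KO2 against KO1; where it leaves 1 library in a group, that library is assumed to vary like the others. Library size as the only scaling put the median of all genes at 0.14 in the knockout average. The cause of these shifts was not tested, beyond fewer genes or samples in the fit.

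Replicate numbers did not pair the libraries (correlations of deviations 0.0191, -0.00406 and -0.0383). With the replicate block, 29 members were higher and 2 lower in the average, 26 and 2 in KO1, 30 and 2 in KO2, and 22 and 0 in KO2 against KO1.

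Signs turned only where no call was made; ranges are over fits that leave out 1 library. KO1 minus WT turned for HIST4H4 (0.018 with library size as the only scaling; -0.15 to 0.034), HIST1H2BE (-0.13, quantile), HIST1H2BL (-0.18, quantile; -0.11 to 0.17), HIST1H3J (-0.030, quantile; -0.0018 to 0.34) and HIST1H3F (-0.22 to 0.70). KO2 minus WT turned for HIST3H2BB (-0.072, quantile; -0.11 to 0.14), also without WT replicate 2 (-0.02). The average turned for HIST1H3C (-0.042, quantile; -0.059 to 0.12). KO2 minus KO1 turned for HIST2H3D (-0.031 to 0.47), HIST1H4D (-0.016 to 0.44) and HIST1H1D (-0.045 to 0.30).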
